A study of Mus musculus with 6 samples.

Results

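Natriuretic peptides are hormones that heart muscle releases when it is stretched, and 7 of the 33696 genes of the series make up this system in the mouse heart. They are the peptide genes Nppa (ENSMUSG00000041616), Nppb (ENSMUSG00000029019) and Nppc (ENSMUSG00000026241), the processing enzyme gene Corin (ENSMUSG00000005220), and the receptor genes Npr1 (ENSMUSG00000027931), Npr2 (ENSMUSG00000028469) and Npr3 (ENSMUSG00000022206). The genes were taken by symbol, by a rule that reads no measured value but was set with earlier results of these data known, and each symbol matched 1 row of the deposited tables. Their levels are followed here from the cells that carry the peptide transcripts to the cells that carry the receptor transcripts.

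Single nuclei were isolated from the left ventricle of male mice at 12 weeks of age and sequenced on the 10x Genomics droplet platform, with 2 libraries per group. The WT-CD group held wild-type littermates on a control diet. The R403Q-CD group held mice with 1 mutated copy of Myh6, given as Myh6+/R404Q (R403Q), on that diet; the mutation lies in the cardiac myosin heavy chain and the mice are used as a model of hypertrophic cardiomyopathy. The R403Q-EMPA group held mice of the same mutant genotype on that diet with empagliflozin, an inhibitor of the sodium-glucose cotransporter SGLT2, at 0.15 mg per g of diet, or about 15 mg per kg of body weight. Feeding began at 9 to 10 weeks of age, so that 2 to 3 weeks on the diet lay behind these nuclei, and the methods place the hearts taken for RNA sequencing at the lower end of that range. The 16 weeks of feeding that the labels also name cannot apply to hearts taken at 12 weeks of age. No wild-type mice on empagliflozin were among the samples used here, so effects of the drug that need the mutation and effects that do not cannot be told apart. All groups were male and all 3 comparisons share libraries, because each group serves in 2 of them. The labels do not say whether the libraries of a group came from separate mice, so every p-value measures the spread between libraries only.

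Nppa encodes the precursor of atrial natriuretic peptide and Nppb that of B-type natriuretic peptide. Both are known as genes of the fetal ventricle and the adult atrium that are switched on again in stressed ventricular muscle. Corin is a membrane protease of heart muscle that cuts the atrial peptide precursor into its active form, and furin, another protease, cuts the B-type precursor. Npr1 encodes the receptor for both hormones, a guanylyl cyclase that makes cyclic GMP, which relaxes vessels and acts through the protein kinase Prkg1. Npr2 encodes the sister cyclase that answers to C-type natriuretic peptide, the product of Nppc. Npr3 encodes a receptor that lacks the cyclase and clears all 3 peptides from the surroundings of the cell.

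The libraries held between 31787308 and 45397128 unique molecular identifiers (UMIs, 1 per captured transcript). After filters on UMIs, genes, mitochondrial share and predicted doublets (3.9 to 6.7% of nuclei), 45889 of 69249 barcodes remained, between 6381 and 9487 per library. Of 68708 distinct barcodes, 538 occurred in more than 1 library, and any pair of libraries shared between 23 and 56. Nuclei were sorted into classes by markers, with the 7 genes left out of the clustering: 14130 fibroblast-like, 12485 endothelial-like, 6912 cardiomyocyte-like, 4613 pericyte-like, 3214 endocardial-like, 2389 myeloid-like, 1103 lymphatic endothelial-like, 447 lymphoid-like, 252 smooth muscle-like and 242 epicardial-like nuclei. R403Q-EMPA replicate 1 stood apart from the other 5 libraries in its Nppa level in every class of 1000 nuclei or more and in its low endocardial Npr3 level. Genes called by edgeR in a comparison with R403Q-EMPA are therefore given with and without it. Between replicates of 1 group, counts differed by more than sampling noise in every group.

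The stretches just before the start of Nppa and Nppb are shown because the 2 genes lie side by side on chromosome 4 and are the members whose levels moved between groups in cardiomyocyte-like nuclei. They are the 250 bases before the annotated start, from RefSeq on build GRCm38.p6, both on the plus strand, with Nppa at chr4:148000472-148000721 and Nppb at chr4:147985650-147985899. Capitals mark matches to short motifs on either strand: GATAA (or TTATC), bound by GATA factors; TNAAGTG, bound by Nkx2-5; CATTCC (or GGAATG), the M-CAT element bound by TEAD factors; and the TATA motif TATAA.
Nppa: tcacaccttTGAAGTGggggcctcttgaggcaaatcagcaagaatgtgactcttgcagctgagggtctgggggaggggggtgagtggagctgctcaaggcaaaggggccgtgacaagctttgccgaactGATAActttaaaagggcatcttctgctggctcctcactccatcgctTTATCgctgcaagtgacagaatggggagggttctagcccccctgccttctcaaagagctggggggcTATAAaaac
Nppb: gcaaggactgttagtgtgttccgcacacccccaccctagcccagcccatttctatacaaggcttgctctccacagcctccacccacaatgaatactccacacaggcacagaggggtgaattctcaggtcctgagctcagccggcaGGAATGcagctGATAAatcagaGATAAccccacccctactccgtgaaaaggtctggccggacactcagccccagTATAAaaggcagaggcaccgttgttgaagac

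Each of the 2 windows held 2 matches to GATAA. In Nppa they lay at −121 to −117 on the plus strand and at −75 to −71 on the minus strand, counted from the start site; in Nppb they lay at −94 to −90 and −83 to −79 on the plus strand. Of the 32851 promoter windows in the RefSeq table, 22.6% held at least 1 such match and 4.28% held 2 or more. The Nppa window also held TGAAGTG at −241 to −235, a motif found in 10.1% of windows, and the Nppb window held the M-CAT motif on the minus strand at −105 to −100, found in 12.6%. TATAA, found in 22.8% of windows, lay at −9 to −5 in Nppa and at −31 to −27 in Nppb. Neither window held a match to the CArG box bound by Srf, found in 1.47%. The windows of the other 5 genes held no match to any of these motifs apart from the TATA motif. A match is a string of letters and not a measured binding site.

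In these ventricles Nppa, Nppb and Corin were on average highest in cardiomyocyte-like nuclei, Npr1 and Npr3 were highest in lining cells, and Npr2 was found in lining, connective tissue and muscle nuclei. Cardiomyocyte-like nuclei held 69.7% of all Nppa UMIs, 90.2% of Nppb and 98.3% of Corin. Endothelial-like nuclei held 71.3% of Npr1, endocardial-like nuclei held 89.2% of Npr3, and Npr2 was spread over fibroblast-like (37.0%), endothelial-like (29.2%) and cardiomyocyte-like nuclei (23.4%). Nppc was close to undetected, with 42 UMIs in all libraries against 43034 for Nppa.

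Levels were taken as CPM: the UMIs of a gene per 1000000 UMIs summed over the nuclei of 1 class in 1 library. The class with the highest mean was set against the next class within each library, by an exact two-sided sign-flip permutation test over 6 pairs that cannot go below p = 0.03125 (adjusted p = 0.0437 over the 7 genes, Benjamini-Hochberg). This smallest p was reached by 5 genes. Both classes were picked by the same levels that the test then compared. Nppa averaged 384 CPM (SD 547, n = 6 libraries) in cardiomyocyte-like and 124 CPM (SD 188) in endothelial-like nuclei, a difference of 1.68 ± 0.39 (SD) in log2(CPM + 1). Nppb differed by 3.56 ± 1.49 from lymphoid-like nuclei, and Corin by 3.43 ± 0.84 from smooth muscle-like nuclei. Npr1 in endothelial-like nuclei exceeded the epicardial-like level by 0.57 ± 0.42, and Npr3 in endocardial-like nuclei exceeded the epicardial-like level by 1.94 ± 0.52. In each of these 5 genes the leading class was higher in 6 of 6 libraries. For Npr2 the endothelial-like level exceeded the fibroblast-like level in 4 of 6 libraries, by 0.15 ± 0.16 (exact p = 0.125, adjusted p = 0.146), and for Nppc no class led (exact p = 1).

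**Figure D1:**
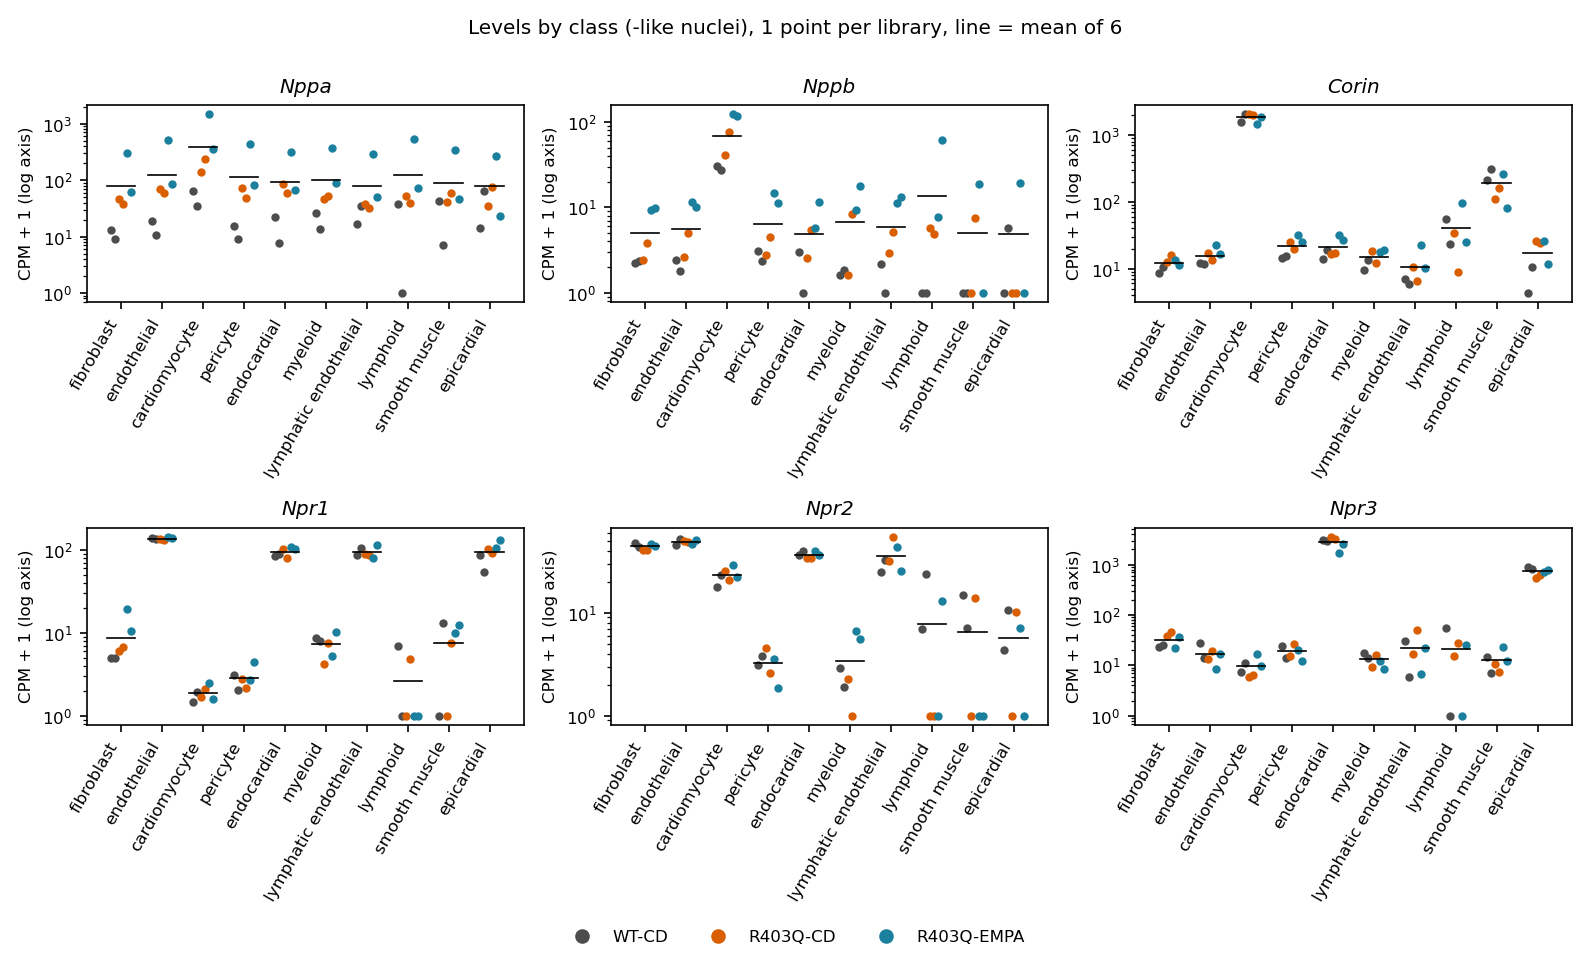
CPM + 1 on a log axis of 6 of the 7 genes in each class of nuclei, with 1 point per library coloured by group and a line at the mean of the 6 libraries. Nppa, Nppb and Corin peak in cardiomyocyte-like nuclei, Npr1 and Npr3 peak in endothelial-like and endocardial-like nuclei, and Nppa alone is spread over every class with R403Q-EMPA replicate 1 on top.

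Nppa is the gene of the atrial peptide, and in cardiomyocyte-like nuclei its level was 63.0 and 33.4 CPM in the WT-CD replicates 1 and 2, 139 and 238 CPM in R403Q-CD, and 1475 and 358 CPM in R403Q-EMPA. Both WT-CD libraries were lowest, both R403Q-EMPA libraries were highest, and no 2 groups overlapped. The group means were 48.2 ± 21.0 (SD, n = 2), 188 ± 70.3 and 916 ± 789.9 CPM, with the widest spread by far between the R403Q-EMPA replicates. These values rest on 535, 289, 1394, 2774, 20932 and 4108 Nppa UMIs in the same order. Over all barcodes of a library, before any filter or class, Nppa stood at 29.8 and 30.8 CPM in WT-CD. It stood at 314 and 205 CPM in R403Q-CD and at 1278 and 257 CPM in R403Q-EMPA. There R403Q-CD replicate 1 lay above R403Q-EMPA replicate 2, so these 2 groups overlapped.

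Nppa was higher in R403Q-EMPA than in WT-CD cardiomyocyte-like nuclei by 4.19 on the log2 scale (SE 0.59, edgeR adjusted p = 0.0072), in a comparison that called 561 of 14331 genes (3.91%, and 1.72% as higher). Nppa was called in this comparison without R403Q-EMPA replicate 1 as well, at 2.90 (adjusted p = 0.0104). R403Q-CD lay above WT-CD by 1.98 (SE 0.54), which did not pass (adjusted p = 0.351), in a comparison that called 9 genes (0.0628%). R403Q-EMPA lay above R403Q-CD by 2.21 (SE 0.53, adjusted p = 0.134), in a comparison that called 33 genes (0.23%), by 0.92 without R403Q-EMPA replicate 1 (adjusted p = 0.629) and by 1.21 with no mitochondrial filter. Without R403Q-EMPA replicate 2 that difference was 2.88 and was called (adjusted p = 0.0171). Nuclei with over 5% mitochondrial UMIs had been removed; when they were kept, 15935 nuclei were cardiomyocyte-like and the difference of R403Q-CD from WT-CD was 2.85 and called (adjusted p = 0.0272), and that of R403Q-EMPA from WT-CD was 4.07 (0.0063). The filter fell unevenly on the groups. With it the WT-CD libraries held 1122 and 711 cardiomyocyte-like nuclei, the R403Q-CD libraries 967 and 975, and the R403Q-EMPA libraries 1542 and 1595; without it the numbers were 1338 and 1391, 3065 and 3366, and 3950 and 2825. Without it the cardiomyocyte-like clusters of 2517, 3164 and 4294 nuclei had median depths of 1191, 1309.5 and 685 UMIs. The others had 9065.5 and 9657. Nppa was among the leading genes of the clusters of 2517 and 4294 nuclei. That setting called 568 genes in R403Q-CD against WT-CD. Its doublet caller failed in R403Q-EMPA replicate 1, where nuclei with the highest doublet scores were removed instead. Complete separation of 2 groups of 2 libraries is frequent by itself: R403Q-CD lay wholly above WT-CD for 18% of genes, R403Q-EMPA above R403Q-CD for 31.5% and R403Q-EMPA above WT-CD for 26.6%.

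The share of cardiomyocyte-like nuclei with at least 1 Nppa UMI followed the same order. With each nucleus thinned to 1000 UMIs, Nppa was found in 3.4% (95% Wilson interval 2.48 to 4.63) and 2.82% (1.84 to 4.32) of WT-CD nuclei. The R403Q-CD shares were 8.17% (6.59 to 10.1) and 13.0% (11 to 15.3), and the R403Q-EMPA shares 44.8% (42.3 to 47.3) and 12.7% (11.2 to 14.5). The WT-CD shares lay below all others, while R403Q-EMPA replicate 2 fell between the R403Q-CD libraries. These intervals cover counting error only. The group means differed by 7.47, 18.2 and 25.6 percentage points (R403Q-CD over WT-CD, R403Q-EMPA over R403Q-CD, R403Q-EMPA over WT-CD; exact two-sided permutation p = 0.33, 0.67 and 0.33, where 0.33 is the smallest that 2 against 2 libraries allow). Without R403Q-EMPA replicate 1 the last 2 differences were 2.15 and 9.62 percentage points. Without thinning the shares were 9.63, 8.72, 27.4, 33.9, 82.6 and 30.4%, at median depths between 6886 and 12116 UMIs per nucleus.

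The tenth of cardiomyocyte-like nuclei with the most Nppa held 100% of its UMIs in both WT-CD libraries, 85.9 and 87.3% of them in the R403Q-CD libraries, and 58.6 and 86.9% in the R403Q-EMPA libraries. The fullest single nucleus of each library held 61, 49, 82, 104, 232 and 140 Nppa UMIs in the same order. Since 9.63 and 8.72% of WT-CD nuclei held any Nppa UMI, the value of 100% was fixed there. Such a share falls as more nuclei hold a UMI, so it does not measure spread apart from level.

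Nppb is the gene of the B-type peptide, and its level in cardiomyocyte-like nuclei was 29.2 and 26.0 CPM in WT-CD, 39.4 and 74.6 CPM in R403Q-CD, and 122 and 115 CPM in R403Q-EMPA. The groups did not overlap, and here the 2 R403Q-EMPA libraries lay close together. The group means were 27.6 ± 2.29, 57.0 ± 24.9 and 118 ± 4.99 CPM (SD, n = 2), from 225 to 1727 UMIs per library.

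Nppb was higher in R403Q-EMPA than in WT-CD by 2.04 on the log2 scale (SE 0.25, edgeR adjusted p = 0.0047), and was called whichever library was left out (2.03 to 2.07, adjusted p = 0.0107 to 0.0234). R403Q-CD lay above WT-CD by 1.04 (SE 0.25) and R403Q-EMPA above R403Q-CD by 1.00 (SE 0.24); neither passed in edgeR (adjusted p = 0.260 and 0.133), while both passed in DESeq2 (adjusted p = 0.0142 and 0.0093). The difference of R403Q-CD from WT-CD was 0.53 without R403Q-CD replicate 2, and that of R403Q-EMPA from R403Q-CD was 0.63 without R403Q-CD replicate 1 and 1.52 without R403Q-CD replicate 2. Thinned to 1000 UMIs, Nppb was found in 2.5 and 2.12% of WT-CD nuclei, 3.35 and 7.95% of R403Q-CD nuclei, and 10.0 and 8.91% of R403Q-EMPA nuclei. The group means of these shares differed by 3.34, 3.81 and 7.15 percentage points, and no groups overlapped (exact permutation p = 0.33 each, the smallest possible).

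**Figure D2:**
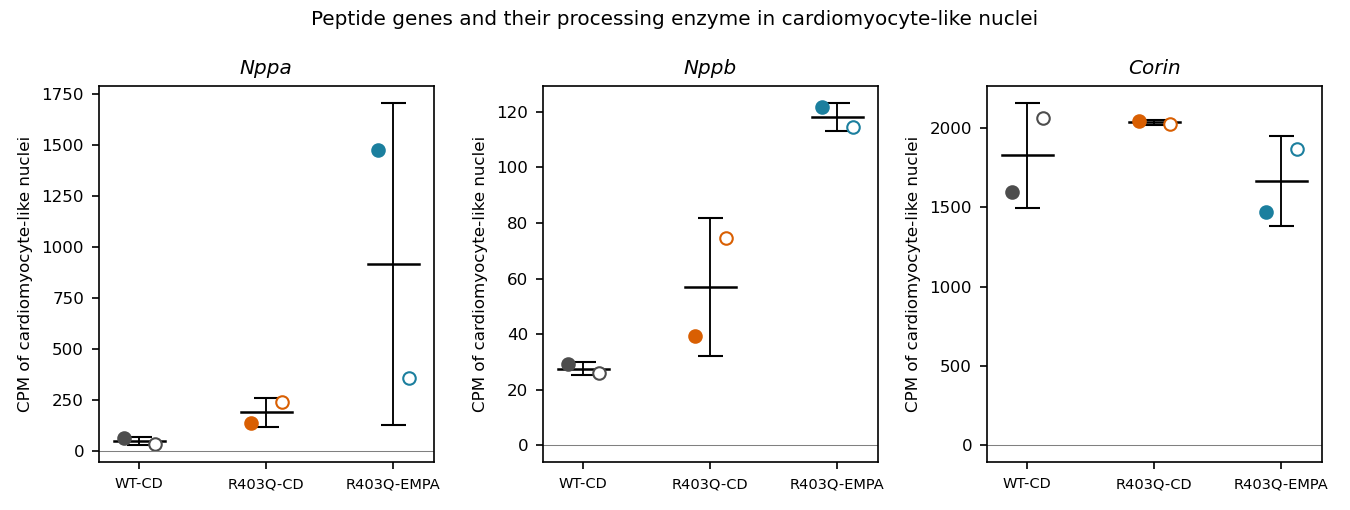
CPM of Nppa, Nppb and Corin in cardiomyocyte-like nuclei by group on linear axes, with replicate 1 as a filled and replicate 2 as an open point, and bars at the mean ± SD of 2 libraries. Nppa and Nppb climb from WT-CD to R403Q-EMPA, the Nppa bar of R403Q-EMPA spans 1475 and 358 CPM, and for Corin the R403Q-CD points lie within the span of WT-CD.

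Nuclei with Nppb more often held Nppa. In a separate random thinning of each nucleus to 1000 UMIs, Nppa was found in 6.67 and 7.69% of Nppb-positive WT-CD nuclei against 2.57 and 2.20% of Nppb-negative ones. The shares were 22.9 and 22.2% against 7.30 and 10.8% in R403Q-CD, and 75.6 and 29.2% against 41.3 and 10.8% in R403Q-EMPA. The Nppb-positive share was higher in 6 of 6 libraries. In WT-CD only 2 nuclei per library held both transcripts after thinning.

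The cardiomyocyte-like class was made up of 3 clusters, and the largest was cluster 16 in every WT-CD and R403Q-CD library and cluster 14 in both R403Q-EMPA libraries. Cluster 16, led by Mylk4, Kcnj3 and Crhr2, held 83.7 and 83.8% of cardiomyocyte-like nuclei for WT-CD, 72.7 and 55.0% for R403Q-CD, and 23.3 and 39.4% for R403Q-EMPA. Cluster 14, led by Ryr3, Scube2 and Nppb itself although Nppb had no part in the clustering, held 6.15 and 3.94%, 11 and 19.3%, and 51.6 and 42.1% in the same order. Cluster 13, with Rgs6 and Ttn among its leading genes, held the rest, between 10.2 and 25.7%. The comparisons of Nppa and Nppb over the whole class therefore set mostly cluster 16 in WT-CD against a mixture in R403Q-EMPA of which cluster 14 was the largest part. In nuclei per library, cluster 16 held 360 to 939, cluster 14 held 28 to 796 and cluster 13 held 87 to 386. The 28 nuclei of cluster 14 were those of WT-CD replicate 2, so values within that cluster rest on few WT-CD nuclei.

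Within cluster 14, the Nppa level was 294 and 220.2 CPM in WT-CD, 629.8 and 731 CPM in R403Q-CD, and 1942 and 651 CPM in R403Q-EMPA. Within cluster 16 it was 47.2 and 24.6, 50.8 and 76.4, and 323 and 76.6 CPM. In every library Nppa was higher in cluster 14 than in cluster 16, and WT-CD was lowest in both clusters. Endothelial-like nuclei, whose Nppa UMIs are given as background further on, held 18.0, 9.70, 69.2, 58.5, 503 and 83.8 CPM. Cluster 14 lay above that level in 6 of 6 libraries, but cluster 16 lay below it in R403Q-CD replicate 1 and in both R403Q-EMPA libraries, so its Nppa level cannot be told apart from background. Fitted cluster by cluster, an alternative chosen after seeing the data, the difference of R403Q-EMPA from WT-CD was 2.29 in cluster 14 (edgeR adjusted p = 0.0169), 2.41 in cluster 16 (0.0324) and 4.76 in cluster 13 (0.0685). Both called differences were smaller than the 4.19 of the whole class. Without R403Q-EMPA replicate 1 the difference was 1.34 in cluster 14 (adjusted p = 0.0277), 1.12 in cluster 16, where the call was lost (0.204), and 2.72 in cluster 13 (0.109). The cluster 14 call was lost without either WT-CD library (2.46 and 2.19, adjusted p = 0.0906 and 0.107), and the cluster 16 call without WT-CD replicate 2 (2.08, 0.102). The cluster 13 difference was called without R403Q-EMPA replicate 2 (5.58, 0.0001).

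For Nppb the differences within clusters did not pass. Cluster 14 held 84.8 and 59.6 CPM of Nppb in WT-CD, 101 and 176 CPM in R403Q-CD, and 166 and 192 CPM in R403Q-EMPA. Cluster 16 held 25.1 and 24.5, 29.6 and 43.4, and 32.9 and 41.7 CPM, so that its R403Q-CD and R403Q-EMPA libraries overlapped. R403Q-EMPA lay above WT-CD by 1.26 in cluster 14 (edgeR adjusted p = 0.0606), 0.54 in cluster 16 (0.268) and 1.60 in cluster 13 (0.111), against 2.04 in the whole class. The share of nuclei in cluster 14 moved between groups together with the class level of Nppb; its part in the class result was not tested.

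**Figure D3:**
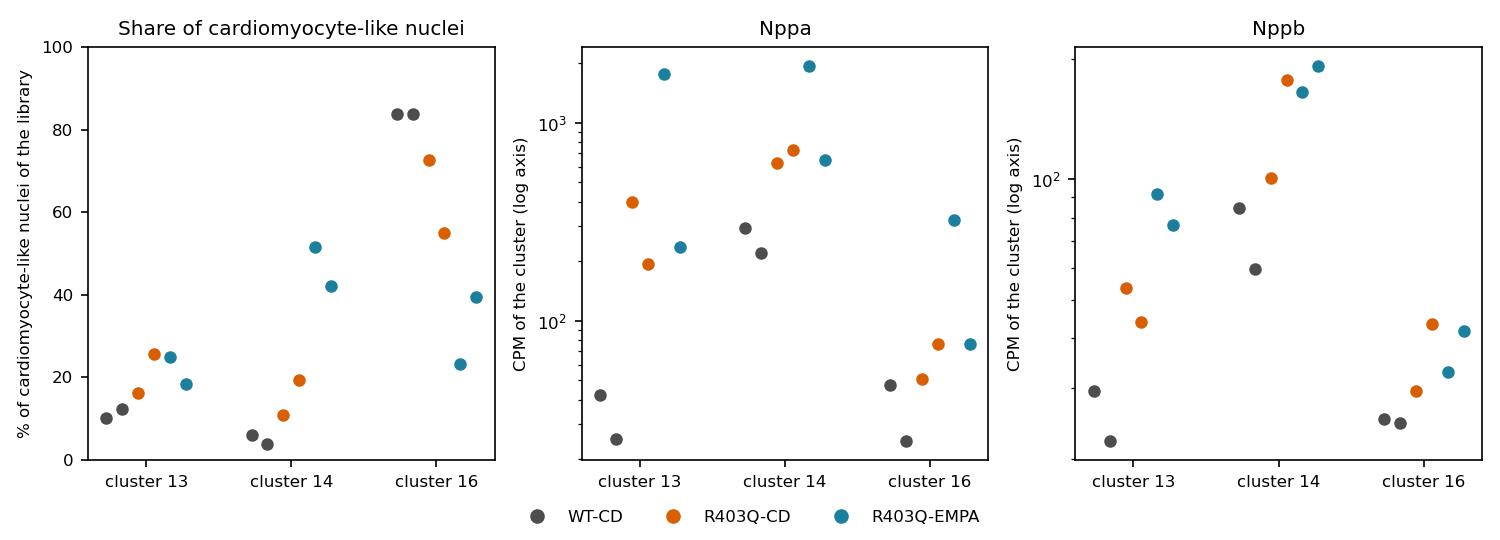
Share of cardiomyocyte-like nuclei in clusters 13, 14 and 16 (left, %), and the CPM of Nppa (middle) and Nppb (right) within each cluster on log axes, with 1 point per library coloured by group. Cluster 14 grows from 6.15 and 3.94% in WT-CD to 51.6 and 42.1% in R403Q-EMPA and has the higher Nppb level of the 3 clusters in every library.

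Nppa is also an atrial transcript, and the tissue was labelled left ventricle, so atrial markers were read beside it. Bmp10, an atrial hormone gene, had no UMI in any cardiomyocyte-like cluster of any library. Myl7, the atrial light chain, was at 0.353, 0, 0.199, 0.172, 6.90 and 2.96 CPM (WT-CD, R403Q-CD, R403Q-EMPA, replicates 1 and 2 of each), and the ventricular light chain Myl2 was at 927, 760.0, 904, 846, 861 and 961 CPM. The whole list of 8 atrial genes summed to 674, 694, 772, 711, 422 and 518 CPM, lowest in R403Q-EMPA, with 1 to 3 of the 8 at 0 in a library. Most of that sum was Kcnj3, a channel gene that also led cluster 16, at 619, 637, 727, 669, 351 and 474 CPM. Other members of the list lay the other way: Dkk3 was at 0.236, 0.231, 0.298, 0.172, 3.88 and 0.958 CPM, and Myl4 at 4.60, 4.73, 5.07, 4.98, 11.6 and 7.49 CPM. Dkk3 differed by 3.26 and Myl4 by 0.97 when R403Q-EMPA was set against WT-CD (edgeR adjusted p = 0.0614 and 0.0889, unadjusted p under 0.05 for both), and Kcnj3 by −0.66 (adjusted p = 0.123). Kcnj5 (−0.44, edgeR adjusted p = 0.246, unadjusted p under 0.05) and Stard10 (−0.24, 0.851) also lay lower in that comparison. Of the 6 atrial genes tested in cardiomyocyte-like nuclei, 3 lay higher there. Outside muscle nuclei, Dkk3 was called higher in fibroblast-like nuclei in that comparison (2.78, adjusted p = 0.0386), where it was also among the leading genes of cluster 5. Dkk3 and Kcnj5 were called higher in endocardial-like nuclei in R403Q-EMPA against R403Q-CD (3.22 and 4.80, adjusted p = 0.0483 and 0.0482). All 3 calls were lost without R403Q-EMPA replicate 1 (1.66, 2.86 and 4.02, adjusted p = 0.0969, 0.471 and 0.530) and without either control library (adjusted p = 0.0688 and 0.117, 0.298 and 0.302, and 0.298 and 0.315), and DESeq2 did not make the endocardial-like calls (0.0742 and 0.122). The R403Q-CD libraries held 0 and 1 Kcnj5 UMIs in endocardial-like nuclei, so its fitted value is no measure of size. In cardiomyocyte-like nuclei Myl7 and Dkk3 passed the filter on low counts only through the R403Q-EMPA libraries, where they were high. Their tests and fitted sizes there rest on that selection and are no independent result. Myl7 was higher in R403Q-EMPA than in WT-CD by 4.68 (SE 0.78, edgeR adjusted p = 0.0139), and by 3.99 without R403Q-EMPA replicate 1 (adjusted p = 0.113). Without WT-CD replicate 1 the other WT-CD library, at 0, was the only control and the fitted value was 8.75 (0.0186), which is no measure of size. Myl7 was higher than in R403Q-CD by 4.61 (adjusted p = 0.0476), a call lost without R403Q-EMPA replicate 1 (3.90, 0.329), R403Q-CD replicate 1 (4.73, 0.330) or R403Q-CD replicate 2 (4.49, 0.235), and DESeq2 gave it no adjusted p. When the 3.07 to 7.33% of cardiomyocyte-like nuclei with a UMI of Myl7, Myl4 or Sln were set aside, Nppa stood at 64, 33.7, 139, 239, 1458 and 359.8 CPM, and R403Q-EMPA exceeded WT-CD by 4.16 (edgeR adjusted p = 0.0069), and by 2.89 without R403Q-EMPA replicate 1 (0.0119). None of the 4 ventricular genes was called in cardiomyocyte-like nuclei in any of the 3 comparisons, by edgeR or DESeq2, and none had an unadjusted p under 0.05. One of them, Hey2, was called higher in endocardial-like nuclei of R403Q-EMPA, by 2.36 against R403Q-CD (adjusted p = 0.0134) and 2.47 against WT-CD (0.0080), and neither call held without R403Q-EMPA replicate 1 (1.78 and 1.90, 0.103 and 0.0589); the first was also lost without either R403Q-CD library (0.105 and 0.198).

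Nppa UMIs were found outside muscle in every library. In endothelial-like nuclei its level was 18.0 and 9.70 CPM in WT-CD, 69.2 and 58.5 CPM in R403Q-CD, and 503 and 83.8 CPM in R403Q-EMPA. In fibroblast-like nuclei it was 11.9 and 8.12, 44.7 and 36.2, and 297 and 61.4 CPM. In both classes WT-CD was lowest and R403Q-EMPA replicate 1 highest, as in cardiomyocyte-like nuclei, while the R403Q-CD libraries ran the other way, with replicate 2 the higher in cardiomyocyte-like nuclei and the lower here. In 1 class of 1 library the level passed that of cardiomyocyte-like nuclei: epicardial-like nuclei of WT-CD replicate 2 held 62.7 CPM, from 13 UMIs in 3 of 40 nuclei, against 33.4 CPM.

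Free RNA from broken muscle cells enters droplets, so these levels were expressed as a percentage of the cardiomyocyte-like level of the same library and set beside other muscle genes. The median over the 9 other classes was 28.6 and 24.3% for Nppa in the WT-CD libraries, 32.9 and 21.8% in the R403Q-CD libraries, and 23.3 and 18.6% in the R403Q-EMPA libraries. Class medians over the libraries ran from 19.5% in fibroblast-like to 29.2% in myeloid-like nuclei. Among muscle genes that these classes should lack, the class medians ran from 24.3 to 45.5% for Actc1 (cardiac actin), 9.48 to 16.5% for Tnnt2 (cardiac troponin T), 5.06 to 7.81% for Myh6 (the mutated myosin itself) and 1.52 to 2.74% for Ttn (titin). By library, the Nppa median lay above that of Tnnt2 in 6 of 6 libraries and below that of Actc1 in 5 of 6, with WT-CD replicate 2 the exception (24.3% for Nppa and 19.6% for Actc1). The percentage differed widely from gene to gene, so the value of 1 gene does not give that of another.

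Nppb stood at 4.76 to 6.32% of its cardiomyocyte-like level in the classes of 1000 nuclei or more, near Myh6. Its median over the other classes was 4.13 and 3.11% in the WT-CD libraries, 3.99 and 5.41% in the R403Q-CD libraries, and 8.50 and 9.03% in the R403Q-EMPA libraries. Corin, the third muscle transcript of the system, stood at 0.425 to 1.45% except in smooth muscle-like nuclei. The share of nuclei with a Nppa UMI, thinned to 1000 UMIs, was 1.37 and 0.738% of fibroblast-like nuclei for WT-CD, 4.56 and 3.25% for R403Q-CD, and 23.0 and 5.62% for R403Q-EMPA, at median depths of 2527.5 to 4564 UMIs against 6886 to 12116 in cardiomyocyte-like nuclei. The Nppa UMIs outside cardiomyocyte-like nuclei are therefore given as background and not read as expression.

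**Figure D4:**
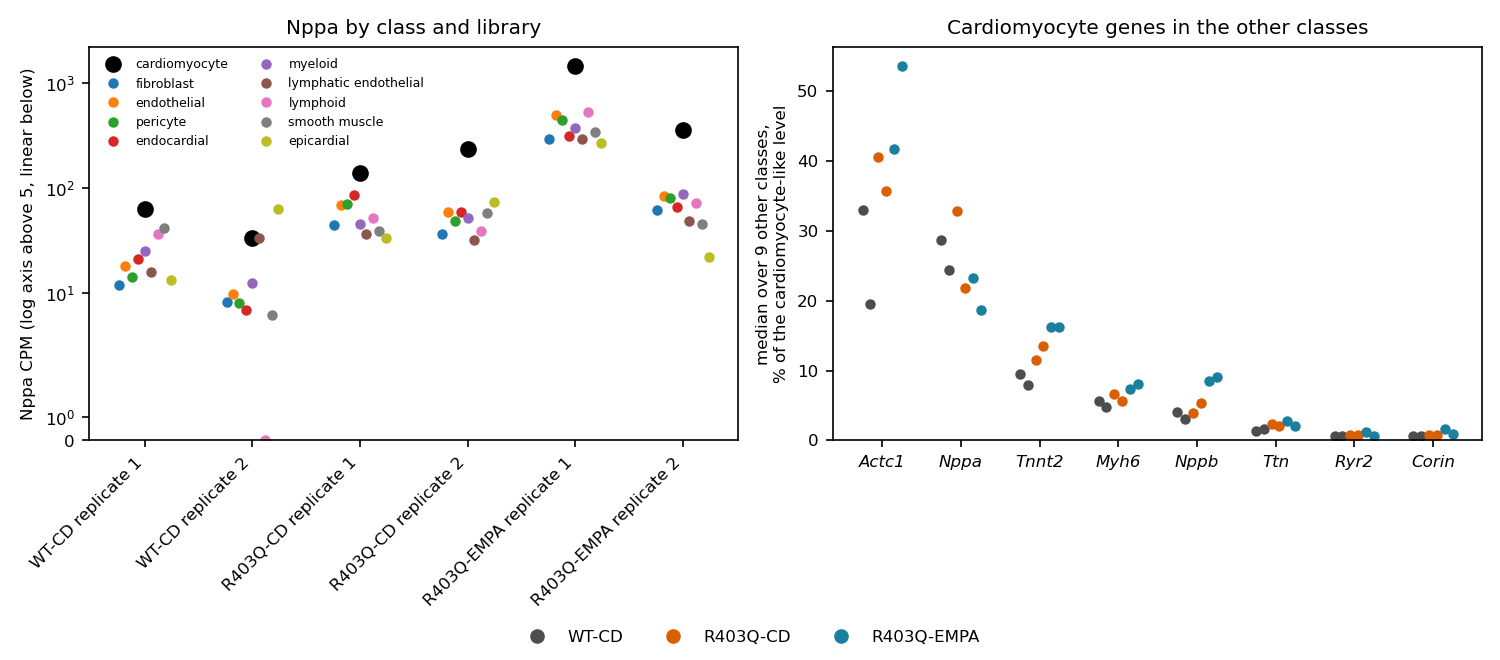
Left, CPM of Nppa in each class (colours) of each library, on an axis that is logarithmic above 5 and linear below; right, the median level of 8 muscle transcripts over the 9 other classes as a percentage of the cardiomyocyte-like level, 1 point per library coloured by group. Nppa is highest in R403Q-EMPA replicate 1 in the cardiomyocyte-like and in each other class drawn, and the percentage is high for Actc1 and Nppa and low for Ryr2 and Corin.

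The count test, run across genes within each class, also called the peptides outside muscle. In R403Q-EMPA against WT-CD, Nppa was called in 5 other classes: at 4.54 in pericyte-like (SE 0.56, edgeR adjusted p = 0.0003), 4.48 in endothelial-like (SE 0.73, 0.0412), 4.12 in fibroblast-like (SE 0.62, 0.0230), 3.79 in endocardial-like (SE 0.65, 0.0136) and 3.58 in myeloid-like nuclei (SE 0.52, 0.0122). These differences sit beside the 4.19 of cardiomyocyte-like nuclei. The comparison called 1.7, 0.648, 1.21, 2.02 and 0.548% of genes in these classes. Without R403Q-EMPA replicate 1 the differences were 2.87, 2.67, 2.59, 2.27 and 2.15, and the myeloid-like call was lost (adjusted p = 0.0882). The endothelial-like, fibroblast-like and endocardial-like calls were lost without WT-CD replicate 2 (4.14, 3.92 and 3.23, adjusted p = 0.0911, 0.0926 and 0.0556), and the fibroblast-like call also without WT-CD replicate 1 (4.37, 0.0557).

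Nppb was called in 3 of them: at 3.21 in endothelial-like (SE 0.51, edgeR adjusted p = 0.0395), 2.64 in fibroblast-like (SE 0.39, 0.0209) and 2.72 in pericyte-like nuclei (SE 0.56, 0.0190). Its level there was 0.808 to 2.13 CPM in WT-CD and 8.20 to 13.6 CPM in R403Q-EMPA. All 3 differences were larger than the 2.04 of Nppb in cardiomyocyte-like nuclei, for a reason that was not tested. In pericyte-like nuclei Nppb passed the filter on low counts through the R403Q-EMPA libraries, where it was high. That call therefore rests in part on this selection. All 3 calls were lost without R403Q-EMPA replicate 1 (3.08, 2.72 and 2.54, adjusted p = 0.291, 0.0946 and 0.245). The endothelial-like and pericyte-like calls were lost without R403Q-EMPA replicate 2 (3.28 and 2.87, adjusted p = 0.0575 and 0.0573), and the endothelial-like and fibroblast-like calls without WT-CD replicate 2 (2.85 and 2.75, adjusted p = 0.0803 and 0.0522). DESeq2 did not make the pericyte-like call (adjusted p = 0.0577). Summed cardiomyocyte markers in fibroblast-like nuclei were 2.69 and 1.75% of the cardiomyocyte-like level for WT-CD, 2.89 and 3.08% for R403Q-CD, and 3.20 and 2.89% for R403Q-EMPA, and their part in these results was not tested.

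Corin, the converting enzyme, passed no test between groups. Its level in cardiomyocyte-like nuclei was 1595 and 2059.7 CPM in WT-CD, 2046 and 2024 CPM in R403Q-CD, and 1467 and 1866 CPM in R403Q-EMPA. Both R403Q-EMPA libraries lay below both R403Q-CD libraries, as they did for 20.9% of genes, and WT-CD overlapped both groups. The R403Q-EMPA value moved most with its own libraries: the difference from R403Q-CD was −0.14 without R403Q-EMPA replicate 1 and −0.56 without replicate 2. R403Q-CD differed from WT-CD by 0.13 (SE 0.25), R403Q-EMPA from R403Q-CD by −0.33 (SE 0.25) and R403Q-EMPA from WT-CD by −0.20 (SE 0.25), with edgeR adjusted p of 0.976, 0.630 and 0.714. Thinned to 1000 UMIs, Corin was found in 65.0 to 79.1% of cardiomyocyte-like nuclei and in 0.687 to 1.47% of fibroblast-like nuclei.

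Smooth muscle-like nuclei held the second level of Corin. The values were 209 and 305 CPM in WT-CD, 108 and 161 CPM in R403Q-CD, and 263 and 79.4 CPM in R403Q-EMPA, from 7 to 59 UMIs per library. That was 10.5% of the cardiomyocyte-like level (median, range 4.25 to 17.9), whereas Corin stood at 0.425 to 1.45% in the other classes. Ryr2, the calcium release channel of muscle, stood at 3.11% (2.39 to 6.34) in smooth muscle-like nuclei and at 0.489 to 1.28% elsewhere. The summed cardiomyocyte markers stood at 3.55 to 5.43% there. Corin passed the filter in 7 classes and was called in none of them in any of the 3 comparisons.

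Nppc, the gene of the C-type peptide, gave too few UMIs for a level. Of its 42 UMIs, 22 lay in fibroblast-like, 7 in endocardial-like, 6 in lymphatic endothelial-like, 3 in cardiomyocyte-like, 2 in epicardial-like, 1 in pericyte-like and 1 in endothelial-like nuclei. The fibroblast-like UMIs were 6 and 6 for WT-CD, 1 and 3 for R403Q-CD, and 1 and 5 for R403Q-EMPA. There WT-CD lay above R403Q-CD and R403Q-EMPA overlapped both, but Nppc passed the filter on low counts in no class, so no difference between groups could be tested.

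Npr1, the receptor cyclase of the atrial and B-type peptides, was a gene of the endothelium. In endothelial-like nuclei its level was 138 and 135 CPM in WT-CD, 134 and 129.7 CPM in R403Q-CD, and 143 and 137 CPM in R403Q-EMPA, from 395 to 1332 UMIs per library. The 6 libraries spanned a narrow range, in the same tissue in which Nppa ran from 33.4 to 1475 CPM in muscle nuclei. R403Q-CD differed from WT-CD by −0.00 on the log2 scale, and R403Q-EMPA differed by 0.05 from either group (SE 0.12 each, edgeR adjusted p = 1.00, 0.934 and 0.924). Thinned to 1000 UMIs, Npr1 was found in 11 to 13.8% of endothelial-like nuclei, at median depths of 2115 to 3423 UMIs, and in 0 to 0.196% of cardiomyocyte-like nuclei.

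Within the endothelial-like class the level of Npr1 differed between clusters. It averaged 181 CPM in cluster 10, led by Vegfc and Col13a1 (range over the 6 libraries 165 to 209), and 137 CPM in cluster 9, led by the capillary genes Car4 and Aqp7 (115 to 165). Cluster 19, led by the arterial genes Gja5 and Sema3g, held 106 CPM (85.6 to 126), and cluster 8, led by Sox17 and Cxcl12, held 82.4 CPM (66.1 to 108). The libraries of cluster 10 did not overlap those of clusters 8 and 19. For Npr2 cluster 19 was the lowest, at 19.5 CPM (9.51 to 28.7), against means of 41.2 to 59.1 CPM in the other endothelial-like clusters.

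Beyond vascular endothelium, Npr1 lay at like levels in 3 further lining cells: 94.3 CPM in epicardial-like (SD 25.4, n = 6 libraries), 93.6 CPM in endocardial-like (SD 11.1) and 93.1 CPM in lymphatic endothelial-like nuclei (SD 13.8), with overlapping ranges. The next class, fibroblast-like nuclei, held 7.71 CPM and did not overlap them. The epicardial-like level is known less well, since it rests on 11 to 26 UMIs per library. It was 71.9% of the endothelial-like level (median), where the summed endothelial markers reached 4.02%. In cardiomyocyte-like nuclei Npr1 stood at 0.602% and the endothelial markers at 0.601%, so the receptor could not be told from background in the cells that make the peptides.

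In fibroblast-like nuclei Npr1 was low and differed between groups. Its level was 3.95 and 3.97 CPM in WT-CD, 4.96 and 5.76 CPM in R403Q-CD, and 18.2 and 9.40 CPM in R403Q-EMPA, from 44 to 131 UMIs per library. R403Q-EMPA replicate 1 was highest. Both R403Q-EMPA libraries lay above both WT-CD libraries, as they did for 23.1% of genes. Npr1 was higher in R403Q-EMPA than in WT-CD by 1.77 (SE 0.32, edgeR adjusted p = 0.0408), as were 0.611% of genes, and above R403Q-CD by 1.34, which did not pass in edgeR (SE 0.31, adjusted p = 0.124) and did in DESeq2 (0.0485), with no filter on low counts (8.6e-05) and without R403Q-EMPA replicate 2 (1.70, 0.0215). Without R403Q-EMPA replicate 1 that difference from R403Q-CD was 0.79 (0.721).

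The call against WT-CD depended on the libraries and settings used. It was lost without R403Q-EMPA replicate 1 (1.22, edgeR adjusted p = 0.299), without WT-CD replicate 1 (1.72, 0.0655), without WT-CD replicate 2 (1.84, 0.0857), with predicted doublets kept (1.66, 0.0533) and with the 4 libraries of the 2 groups alone (1.77, 0.0949). The 8 endothelial markers summed to 111 and 98.2, 96.6 and 113, and 193 and 91.4 CPM in fibroblast-like nuclei, none of them at 0 and highest in R403Q-EMPA replicate 1. As a percentage of the endothelial-like level, Npr1 stood at 2.87 to 12.8% in fibroblast-like nuclei and the markers at 0.886 to 1.80%. Among fibroblast-like clusters, Npr1 averaged 17.6 CPM in cluster 5, led by Ltbp2, Cilp, Thbs4 and Postn, against 1.89 CPM in cluster 3, led by Kcnip1 and Tenm4. Cluster 5 held 111 and 58 nuclei for WT-CD, 48 and 78 for R403Q-CD, and 557 and 139 for R403Q-EMPA, and its part in the class result was not tested.

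Npr2, the cyclase for the C-type peptide, differed little between groups. Its endothelial-like level was 44.0 and 51.3 CPM in WT-CD, 48.7 and 47.4 CPM in R403Q-CD, and 45 and 50.4 CPM in R403Q-EMPA. The fibroblast-like level was 46.7 and 42.8, 40.0 and 39.9, and 45.7 and 43.6 CPM. The largest of the 6 differences between groups in these classes was −0.16 (SE 0.12, R403Q-CD against WT-CD in fibroblast-like nuclei), and none passed in edgeR (adjusted p = 0.732 to 1.00).

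Endocardial-like nuclei followed with 35.7 CPM of Npr2 (SD 2.56, n = 6 libraries), below every fibroblast-like library, and lymphatic endothelial-like nuclei held 34.5 CPM (SD 11.5). Cardiomyocyte-like nuclei held Npr2 as well, at 16.7 and 22.1 CPM in WT-CD, 24.3 and 19.7 CPM in R403Q-CD, and 28.0 and 21.3 CPM in R403Q-EMPA. That was 42.7% of the endothelial-like level, where the endothelial markers stood at 0.601%. Thinned to 1000 UMIs, Npr2 was found in 1.25 to 2.68% of cardiomyocyte-like nuclei and in 0 to 0.322% of pericyte-like nuclei, whose median depth was 2004 to 3392.5 UMIs. Muscle nuclei thus carried the transcript of the C-type receptor above background and that of Npr1 at background.

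Npr3, the clearance receptor, marked the inner and outer linings of the heart. Its endocardial-like level was 3015 and 2914 CPM in WT-CD, 3564 and 3288 CPM in R403Q-CD, and 1674 and 2625 CPM in R403Q-EMPA. Both R403Q-EMPA libraries lay below the other 4, and R403Q-EMPA replicate 1 was the lowest. Thinned to 1000 UMIs, Npr3 was found in 81.6 and 75.9%, 86.4 and 83.0%, and 47.0 and 68.8% of endocardial-like nuclei in the same order.

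The group means were 2965 ± 71.9, 3426 ± 195 and 2149 ± 672 CPM (SD, n = 2). R403Q-EMPA lay below R403Q-CD by a log2 difference of −0.69 (SE 0.22), which did not pass over all genes (edgeR adjusted p = 0.225, unadjusted p under 0.05), in a comparison that called 0.765% of genes and in which R403Q-EMPA lay wholly below R403Q-CD for 20.4% and below WT-CD for 19.5%. The difference was −0.40 without R403Q-EMPA replicate 1 (adjusted p = 0.807) and −1.06 without replicate 2, where it was called (adjusted p = 0.0314), as it was with no filter on low counts (−0.68, adjusted p = 0.0032). R403Q-EMPA differed from WT-CD by −0.50 (SE 0.22, adjusted p = 0.329), by −0.20 without R403Q-EMPA replicate 1 (0.850) and by −0.86 without replicate 2 (0.0621), and R403Q-CD from WT-CD by 0.20 (SE 0.22, adjusted p = 0.999). The summed endocardial markers in these nuclei moved the same way, at 11690.4 and 12657 CPM for WT-CD, 13192 and 11416 for R403Q-CD, and 8176 and 9306 for R403Q-EMPA. The summed endothelial markers in the same nuclei, none of the 8 at 0, moved the other way, at 6284 and 6798 CPM for WT-CD, 6714 and 7153 for R403Q-CD, and 7687 and 7406 for R403Q-EMPA. The part of either list in the Npr3 values was not tested.

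Epicardial-like nuclei held 913 and 819 CPM of Npr3 in WT-CD, 551 and 626 CPM in R403Q-CD, and 701 and 772 CPM in R403Q-EMPA, from 66 to 276 UMIs per library. Both R403Q-CD libraries were lowest and both WT-CD libraries highest, by −0.58 on the log2 scale (SE 0.23), without passing over all genes (edgeR adjusted p = 0.807, unadjusted p under 0.05), and R403Q-CD lay wholly below WT-CD for 16.3% of genes. Fibroblast-like nuclei came next at 31.1 CPM (SD 9.79, n = 6), with 22.4 and 24.6, 36.8 and 45.5, and 21.1 and 36.0 CPM. There R403Q-CD lay above WT-CD by 0.80 (SE 0.24, edgeR adjusted p = 1.00, unadjusted p under 0.05), a difference called with no filter on low counts (0.81, adjusted p = 0.0037). The ranges of the endocardial-like, epicardial-like and fibroblast-like classes did not overlap.

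In fibroblast-like nuclei Npr3 was 1.15% of the endocardial-like level (median, range 0.742 to 1.38), beside 1.65% (1.28 to 3.86) for the summed endocardial markers. In epicardial-like nuclei it was 28.8% (15.5 to 41.9), beside 18.3% (13.3 to 23.5) for those markers. The ranges overlapped in both classes. The epicardial-like cluster scored 2 of the endocardial markers itself, so their sum is no clean measure of background there. Within the fibroblast-like class Npr3 averaged 87.0 CPM in cluster 4, led by Fgf10 and Pappa (67.7 to 116 over the 6 libraries), and 9.62 CPM in cluster 5. The libraries of these 2 clusters did not overlap for Npr3, whereas for Npr1 they did, at 15.7 CPM in cluster 4 (4.33 to 56.7) and 17.6 CPM in cluster 5 (4.52 to 31.3). Cardiomyocyte-like nuclei held the lowest mean of Npr3, at 8.58 CPM, with 6.24 and 9.93, 4.78 and 5.58, and 16.1 and 8.80 CPM, and R403Q-EMPA above R403Q-CD by 1.21 without passing (edgeR adjusted p = 0.194, unadjusted p under 0.05). That difference was 0.75 without R403Q-EMPA replicate 1 (adjusted p = 0.734) and 0.32 with no mitochondrial filter (0.588), and it was called with no filter on low counts (1.23, 0.0003).

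**Figure D5:**
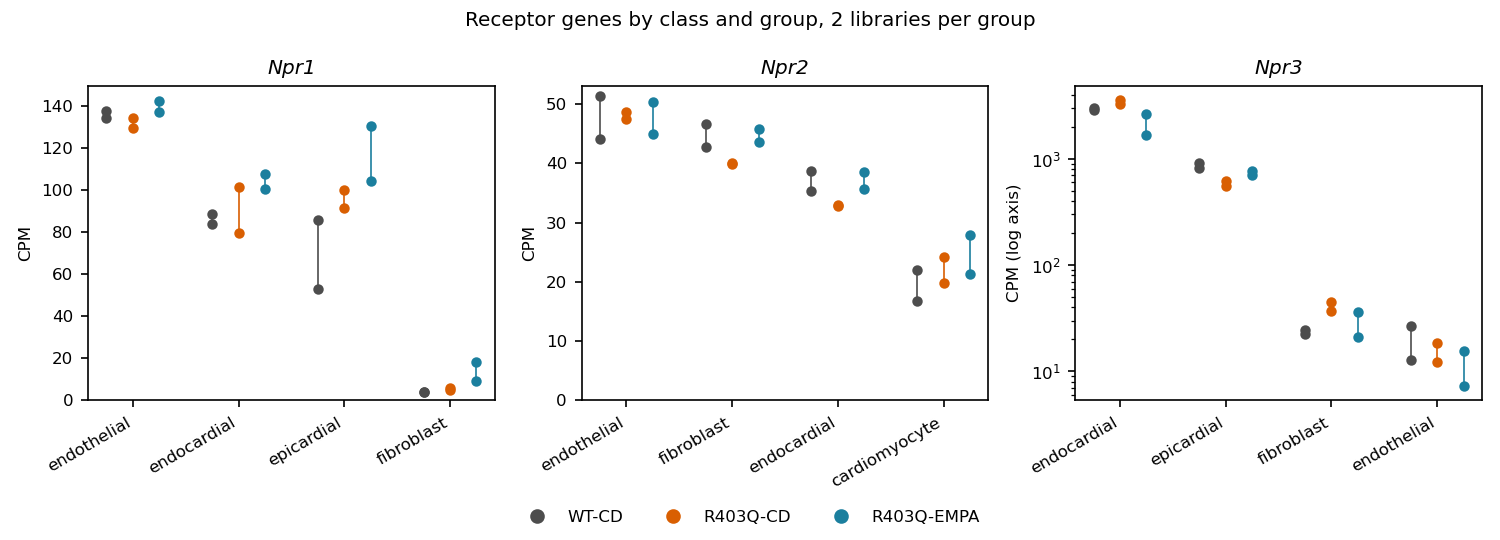
CPM of Npr1 and Npr2 (linear axes) and Npr3 (log axis) in 4 classes of nuclei each, with 1 point per library coloured by group and a line that joins the 2 libraries of a group. Npr1 in endothelial-like nuclei stays between 129.7 and 143 CPM, Npr1 in fibroblast-like nuclei reaches 18.2 CPM in R403Q-EMPA, and endocardial-like Npr3 is lowest in R403Q-EMPA.

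Over all classes, 11 calls were made on members and all 11 came from R403Q-EMPA against WT-CD: 6 for Nppa, 4 for Nppb and 1 for Npr1. Of these, 2 lay in cardiomyocyte-like nuclei and 8 were Nppa or Nppb in other classes, where the Nppa UMIs were given as background. By edgeR none was made in R403Q-CD against WT-CD or in R403Q-EMPA against R403Q-CD. DESeq2 called Nppb in cardiomyocyte-like nuclei in both and Npr1 in fibroblast-like nuclei in the second. The filter on low counts let 6 of the 7 genes through in cardiomyocyte-like, endothelial-like and fibroblast-like nuclei, 5 in endocardial-like and myeloid-like nuclei, and 1 in lymphoid-like and smooth muscle-like nuclei. Among all genes tested, R403Q-CD against WT-CD called 0.0628% in cardiomyocyte-like, 0.085% in epicardial-like and 0.00929% in myeloid-like nuclei and 0 in the other 7 classes. R403Q-EMPA against R403Q-CD called 0.765% in endocardial-like, 0.58% in pericyte-like, 0.332% in fibroblast-like, 0.23% in cardiomyocyte-like, 0.171% in endothelial-like, 0.0929% in myeloid-like, 0.0638% in epicardial-like, 0.0544% in smooth muscle-like and 0.0449% in lymphatic endothelial-like nuclei and 0 in lymphoid-like nuclei. In the classes where no member was called, R403Q-EMPA against WT-CD called 0.299% in smooth muscle-like, 0.298% in epicardial-like and 0.0562% in lymphatic endothelial-like nuclei and 0 in lymphoid-like nuclei. Within a class the median log2 difference over all genes lay within 0.02 of 0 in every comparison.

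The machinery around the receptors was read from 35 genes for peptide cleavage and cyclic GMP. Of these, 9 were highest in pericyte-like and 8 in smooth muscle-like nuclei, classes in which Npr1 was at 1.88 and 6.48 CPM. Prkg1, the cyclic GMP-dependent kinase, averaged 9061 CPM in smooth muscle-like and 9043 CPM in pericyte-like nuclei. Gucy1b1, a subunit of the soluble cyclase that answers to nitric oxide instead of peptides, averaged 779 CPM in pericyte-like nuclei, and Irag1, a target of the kinase, 1299 CPM. Of genes that end the signal, Pde2a was highest in endothelial-like nuclei (262 CPM), Pde9a in endocardial-like nuclei (135 CPM), Pde5a in smooth muscle-like nuclei (335 CPM), and Mme, the peptide-cutting enzyme neprilysin, in fibroblast-like nuclei (182 CPM).

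In cardiomyocyte-like nuclei 29 of the 35 genes passed the filter. None was called by edgeR when R403Q-CD was set against WT-CD (2 lay higher and 4 lower at an unadjusted p under 0.05) or when R403Q-EMPA was set against R403Q-CD (2 higher and 3 lower, with Pde1c called lower by DESeq2). In R403Q-EMPA against WT-CD 1 was called higher and 1 lower, and the median over the list was −0.04 against −0.00 over all genes. Furin, the protease of the B-type precursor, was at 14.1 and 17.2 CPM in WT-CD, 21.5 and 26.2 CPM in R403Q-CD, and 32.1 and 33.0 CPM in R403Q-EMPA. The groups did not overlap, and R403Q-EMPA exceeded WT-CD by 0.99 (SE 0.19, edgeR adjusted p = 0.0242), a call lost without R403Q-EMPA replicate 1 (1.05, 0.101), R403Q-EMPA replicate 2 (0.93, 0.0905) or WT-CD replicate 1 (0.76, 0.0521).

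Mme was at 31.6 and 28.8 CPM in WT-CD, 20.6 and 20.2 CPM in R403Q-CD, and 14.3 and 11.6 CPM in R403Q-EMPA in the same nuclei. It was lower in R403Q-EMPA than in WT-CD by a log2 difference of −1.28 (SE 0.16, edgeR adjusted p = 0.0051), and was called whichever library was left out (−1.39 to −1.17). Both differences are over the whole class, so they too set mostly cluster 16 in WT-CD against the mixture of clusters in R403Q-EMPA. Within clusters 13, 14 and 16, R403Q-EMPA differed from WT-CD by −2.66, −0.70 and −0.73 for Mme, called in cluster 13 alone (edgeR adjusted p = 0.0375, 0.571 and 0.0761), and by 0.44, 1.00 and 0.94 for Furin, called in cluster 16 alone (0.888, 0.208 and 0.0475). Without R403Q-EMPA replicate 1 neither was called in any of the 3 clusters (adjusted p = 0.354, 0.617 and 0.209 for Mme and 1.00, 0.302 and 0.204 for Furin). Genes of the list with an unadjusted p under 0.05 in R403Q-CD against WT-CD were Mme (−0.57), Irag1 (−1.28), Gucy1a2 (−0.84), Gucy1b1 (−1.0), Furin (0.59) and Pde5a (0.99). In R403Q-EMPA against R403Q-CD they were Mme (−0.70), Pde1c (−0.84), Pcsk6 (−0.84), Pde3b (0.96) and Pde10a (1.04). In R403Q-EMPA against WT-CD they were also Pde5a (1.51), Pde10a (1.07), Gnai1 (0.72), Pde3b (0.69), Gnai2 (0.44), Pcsk6 (−0.79) and Pde1c (−0.83).

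In endothelial-like nuclei, the main site of Npr1, 31 of the 35 genes passed the filter and none was called by edgeR in any comparison. At an unadjusted p under 0.05, 2 lay higher and 2 lay lower when R403Q-CD was set against WT-CD: Furin (0.48), Adcy6 (0.32), Pde9a (−0.42) and Pcsk6 (−0.74). In R403Q-EMPA against R403Q-CD, Pde3a (0.75), Pde3b (0.50) and Pde5a (0.44) were higher. In R403Q-EMPA against WT-CD, Furin (0.68), Adcy6 (0.55) and Pde5a (0.53) were higher, and Mme (−1.44) and Pcsk6 (−0.85, also called by DESeq2) were among those lower. In endocardial-like nuclei none of 26 was called by edgeR in any comparison, with 3, 7 and 7 at an unadjusted p under 0.05 in the 3 comparisons, and DESeq2 called Pde1c higher in R403Q-EMPA than in WT-CD.

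In smooth muscle-like nuclei 1 of 23 tested genes of the list was called. Pde10a, a phosphodiesterase, was at 69.7 and 42.7 CPM in WT-CD, 39.2 and 90.0 CPM in R403Q-CD, and 1070.4 and 306.1 CPM in R403Q-EMPA, from 4 to 240 UMIs per library. Both R403Q-EMPA libraries lay above the other 4; R403Q-EMPA lay wholly above R403Q-CD for 15.6% of genes and above WT-CD for 19.9%. Pde10a was higher in R403Q-EMPA than in R403Q-CD by 3.41 (SE 0.50, edgeR adjusted p = 0.0015) and than in WT-CD by 3.66 (SE 0.50, adjusted p = 0.0009), and by 2.20 and 2.43 without R403Q-EMPA replicate 1 (0.0339 and 0.0057). Both calls held whichever library was left out and were not made by DESeq2 (adjusted p = 0.371 and 0.0719).

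In fibroblast-like nuclei 2 of 31 genes were lower in R403Q-EMPA than in WT-CD by edgeR, in a comparison that called 1.21% of all genes tested there. Pde1c, a phosphodiesterase, was at 43.0 and 39.5, 28.9 and 25, and 11.4 and 16.2 CPM (−1.64, SE 0.19, adjusted p = 0.0147; −1.37 and not called without R403Q-EMPA replicate 1, 0.0661). Irag1 was at 83.2 and 108, 99.7 and 91.3, and 40.4 and 54.6 CPM (−1.06, SE 0.20, adjusted p = 0.0483), lost without R403Q-EMPA replicate 1 (−0.84, 0.319) or WT-CD replicate 2 (−0.80, 0.0924). No gene of the list was called there in the other 2 comparisons by edgeR, where DESeq2 called Irag1, Mme and Pde1c lower in R403Q-EMPA than in R403Q-CD.

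At an unadjusted p under 0.05, R403Q-CD fibroblast-like nuclei lay higher than WT-CD for Rgs2 (0.76) and lower for Dpp4 (−0.70), Pde1c (−0.61), Pde9a (−0.40) and Rgs4 (−1.24). R403Q-EMPA against R403Q-CD had 13 such genes, 7 higher and 6 lower. The higher ones were Plcb1 (0.71), Pde3b (0.48), Ece1 (0.47), Vasp (0.47), Dpp4 (0.41), Pde3a (0.38) and Pde9a (0.37), and the lower ones Irag1 (−1.06), Pde1c (−1.03), Mme (−1.02), Gnai1 (−0.81), Gucy1a1 (−0.68) and Gucy1a2 (−0.57). Against WT-CD 4 lay higher, Prkg2 (1.44), Pde3a (0.54), Vasp (0.42) and Ece1 (0.41), and 6 lower, among them, beside both calls, Gucy1a1 (−1.02) and Gucy1a2 (−0.62), which DESeq2 called, and Pcsk6 (−0.57).

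In pericyte-like nuclei 3 of 31 genes were higher in R403Q-EMPA than in WT-CD by edgeR, in a comparison that called 1.7% of all genes tested there. Pde10a was at 106 and 127, 179 and 266, and 955 and 290.4 CPM (2.39, SE 0.36, adjusted p = 0.0019; 1.32 without R403Q-EMPA replicate 1, 0.0086). Pde3b was at 11.4 and 11.5, 16.2 and 15.4, and 37.4 and 32.8 CPM (1.60, SE 0.27, adjusted p = 0.0039; 1.53 and not called without R403Q-EMPA replicate 1, 0.0627). Trpc6, a cation channel, was at 51.1 and 53.6, 56.6 and 71.3, and 228 and 63.8 CPM, so that its difference of 1.45 (SE 0.35, adjusted p = 0.0479) lay in R403Q-EMPA replicate 1 and was 0.30 without it (0.803), and DESeq2 did not call it (0.674).

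Transcription factors known to act on the peptide promoters were measured in the same nuclei. Of 17, 16 passed the filter in cardiomyocyte-like nuclei and none was called by edgeR in any comparison there or in fibroblast-like, endothelial-like or endocardial-like nuclei. Gata4 averaged 403.2 CPM, Myocd 1298 CPM, Tead1 683 CPM, Tbx5 72.9 CPM and Nkx2-5 18.3 CPM in cardiomyocyte-like nuclei, the highest class for each. At an unadjusted p under 0.05, Hand2 lay higher in R403Q-CD than in WT-CD (0.76, adjusted p = 0.222) and in R403Q-EMPA than in WT-CD (0.70, adjusted p = 0.0534), at 43.8 and 37.9, 78.2 and 60.4, and 76.7 and 62.0 CPM, and Mef2c lay lower (−0.44 and −0.56). DESeq2 called Hand2 higher and Mef2c lower in R403Q-EMPA against WT-CD. In the other 3 classes 0 to 5 factors had an unadjusted p under 0.05 in a comparison, and DESeq2 called Tbx5 higher in R403Q-EMPA than in R403Q-CD in endocardial-like nuclei.

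Genes whose pattern was most like each member were found by Pearson correlation of log2(CPM + 1) over 60 points, the 10 classes in each of 6 libraries, among 15668 genes. The points share libraries, depth and the free RNA described for Nppa, so the values are a description. Nppa was closest to Acta1 (r = 0.76), Cryab (0.74) and Actc1 (0.73), and Nppb had Csrp3 (0.80) and Ptgds (0.77) among its closest. Corin was closest to Nexn (0.94), Ldb3 (0.94) and Slmap (0.93). Npr1 was closest to Kdr (0.90), Dll1 (0.88) and Aplp2 (0.88), Npr2 to Ptprm (0.78), Entrep1 (0.77) and Plxna2 (0.77), and Npr3 to Cdh11 (0.91), Mpzl2 (0.90) and Gm17216 (0.83). Kdr and Cdh11 were among the markers used to name the endothelial-like and endocardial-like classes. For Nppc the highest value was 0.56 (Papolb), on 42 UMIs.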

How the data were processed

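The authors deposited UMI counts per gene and nucleus for each of the 6 libraries, as raw counts from Cell Ranger 8.0.1 on GRCm39 per the labels, with no normalization and no table of cell types. Barcodes with at least 500 UMIs, 300 genes and at most 5% mitochondrial UMIs were kept, and doublets predicted by Scrublet were removed. Nuclei were clustered on 2000 variable genes, 30 principal components and Leiden resolution 1 (Python 3.11.15, scanpy 1.11.5, leidenalg 0.10.2), without the 7 members, and clusters were named from marker lists as "-like" classes. No atrial or adipocyte class was named.

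Counts were summed per library and class, in classes with at least 20 nuclei in every library; 61 Schwann-like and 41 unnamed nuclei were not tested. The 3 comparisons were fitted with edgeR's quasi-likelihood test (edgeR 4.0.16, R 4.3.3) on all 6 libraries, with filterByExpr, TMM and Benjamini-Hochberg adjustment over all genes of a class; genes at an adjusted p under 0.05 were called. SE is the standard error of a log2 difference. Counts of genes at an unadjusted p under 0.05 describe the lists only, because the share of all genes under that threshold is not given. On simulated counts, 33 to 67% of 2-fold and 77 to 91% of 4-fold changes were recovered over the classes and comparisons simulated. The false share among the simulated calls was 3.51 to 10.9%, mostly above the level that the threshold of 0.05 sets. For R403Q-EMPA against WT-CD it was 9.93% in cardiomyocyte-like and 10.1% in fibroblast-like nuclei. Shares of nuclei were compared after thinning to 1000 UMIs, and exact permutation tests used scipy 1.17.1. The alternatives were DESeq2 1.42.0, RLE size factors, no filter on low counts, 2 groups only, each library left out, no mitochondrial filter, doublets kept, at least 1000 UMIs, Leiden resolution 2, no nuclei with Myl7, Myl4 or Sln, thinning to 500 UMIs or none, mean counts per 10000 and, added later, single cardiomyocyte-like clusters, also without each library. The members and the lists (pathway, transcription factors, atrial, ventricular, markers) were chosen with earlier results of these data known. Named beyond the members were called genes of the pathway list, its genes at an unadjusted p under 0.05 in the 3 largest classes, atrial and ventricular genes beside Nppa, muscle genes as free RNA, and the 3 genes most like each member among genes with at least 200 UMIs. Hand2, Mef2c, the factors given by level, and the genes given by their highest class were named after their values were seen. Promoter windows came from RefSeq on GRCm38.p6, a build other than that of the counts, and no coordinates were carried between the builds. Protein sequences were not used here. Some genes that met the rule for naming are not reported here.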

Additional observations from a re-analysis of the deposited data

How the results depend on the processing

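No paired analysis was possible because the labels number the libraries 1 to 6 across the groups and no 2 groups share a number. Single libraries decided several calls, and the counts of Nppc, of Npr1 in fibroblast-like nuclei and of epicardial-like nuclei were low. Of the log2 differences of members, leaving-out of libraries aside, 59 of 72 alternatives for Nppa and Nppb in cardiomyocyte-like nuclei and 292 of 306 for the others kept direction and side of the threshold; with a library left out, 23 for Nppa and Nppb did and 1 became called, and of the others 122 did, 17 turned sign, 3 lost and 2 gained a call; the share differences of Nppa and Nppb kept their direction in all 12, in a test that cannot pass the threshold with 2 against 2 libraries. Where values moved, the cause was not tested unless the setting itself changes the genes, nuclei or libraries used.

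In cardiomyocyte-like nuclei, Nppa in R403Q-CD against WT-CD became called with no filter on low counts (1.99) and with no mitochondrial filter (2.85), and in R403Q-EMPA against R403Q-CD with no filter on low counts (2.23). Nppa in R403Q-EMPA against WT-CD was not called in cluster 13 alone (4.76). Nppb became called in R403Q-CD against WT-CD with DESeq2 (1.04), no filter on low counts (1.05) and no mitochondrial filter (1.11), and in R403Q-EMPA against R403Q-CD with DESeq2 (1.00) and no filter on low counts (1.02); in cluster 16 alone it was −0.0069. In R403Q-EMPA against WT-CD Nppb was not called in clusters 13, 14 and 16 alone (1.60, 1.26 and 0.54). Signs turned without a call for Corin (R403Q-CD against WT-CD with no mitochondrial filter, −0.10; R403Q-EMPA against WT-CD in cluster 16, 0.011), for Npr3 (R403Q-CD against WT-CD with no mitochondrial filter, 0.50) and for Npr1 in endothelial-like nuclei (R403Q-CD against WT-CD with doublets kept, 0.0026, no filter on low counts, 0.0041, and no mitochondrial filter, 0.017).

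With no filter on low counts, Npr3 became called in R403Q-EMPA against R403Q-CD in cardiomyocyte-like (1.23), endocardial-like (−0.68) and fibroblast-like nuclei (−0.59) and in R403Q-CD against WT-CD in fibroblast-like nuclei (0.81), and Npr1 in fibroblast-like nuclei in R403Q-EMPA against R403Q-CD (1.33, and 1.33 with DESeq2).

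With 1 library left out, the Nppa difference of R403Q-EMPA from R403Q-CD ran from 0.92 to 2.88. Signs turned with 1 library left out for Corin in cardiomyocyte-like nuclei (R403Q-CD against WT-CD −0.12 to 0.45, R403Q-EMPA against WT-CD −0.46 to 0.12), Npr2 there (−0.10 to 0.49 and, between R403Q-EMPA and R403Q-CD, −0.057 to 0.29), Npr1 in endothelial-like (R403Q-CD against WT-CD −0.064 to 0.057, R403Q-EMPA against WT-CD −0.015 to 0.11) and endocardial-like nuclei (R403Q-CD against WT-CD −0.12 to 0.23), Npr2 in endothelial-like nuclei (−0.13 to 0.24 for R403Q-CD against WT-CD, −0.15 to 0.055 between R403Q-EMPA and R403Q-CD, and −0.20 to 0.18 for R403Q-EMPA against WT-CD) and Npr3 in fibroblast-like nuclei (R403Q-EMPA against WT-CD −0.22 to 0.59). Within single clusters, an alternative chosen after seeing the data, the difference of R403Q-EMPA from WT-CD turned sign with 1 library left out for Furin in cluster 13 (−0.19 to 1.22).

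Counts of called genes moved most. In R403Q-CD against WT-CD, cardiomyocyte-like nuclei gave 9 genes, 15 without nuclei with atrial markers, 99 with DESeq2, 18 with doublets kept, 312 with no filter on low counts, 568 with no mitochondrial filter and 0 to 32 with a library left out; endothelial-like nuclei gave 0, 5 with DESeq2, 65 with no filter and 0 to 7; endocardial-like nuclei gave 0, 44 with no filter and 0 to 2; fibroblast-like nuclei gave 0, 9 with DESeq2 and 102 with no filter. In R403Q-EMPA against R403Q-CD, cardiomyocyte-like nuclei gave 33, 217 with DESeq2, 670 with no filter, 166 with 2 groups only and 0 to 37 with a library left out; endothelial-like nuclei gave 24, 123 with DESeq2, 38 with doublets kept, 503 with no filter, 162 with 2 groups and 4 to 46; endocardial-like nuclei gave 88, 501 with no filter, 208 with 2 groups and 0 to 213; fibroblast-like nuclei gave 50, 254 with DESeq2, 30 with doublets kept, 82 with RLE, 983 with no filter, 25 with no mitochondrial filter, 258 with 2 groups and 0 to 276. In R403Q-EMPA against WT-CD, cardiomyocyte-like nuclei gave 561, 1415 with no filter, 1160 with no mitochondrial filter, 272 with 2 groups and 125 to 834; endothelial-like nuclei gave 91, 212 with DESeq2, 759 with no filter, 13 with 2 groups and 13 to 565; endocardial-like nuclei gave 232, 790 with no filter, 105 with 2 groups and 40 to 405; fibroblast-like nuclei gave 183, 405 with DESeq2, 1084 with no filter, 52 with 2 groups and 18 to 533.

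The leading class kept its lead with mean counts per 10000, at log2 differences of 1.62 for Nppa, 3.51 for Nppb, 0.54 for Npr1, 1.99 for Npr3 and 3.79 for Corin, with adjusted exact permutation p of 0.0547 to 0.0875. With a library left out the differences were 1.60 to 1.81 for Nppa, 3.29 to 4.09 for Nppb, −0.96 to 0.29 for Nppc, 0.42 to 0.67 for Npr1, 1.79 to 2.08 for Npr3 and 3.21 to 3.62 for Corin, where an exact test on 5 pairs cannot go below p = 0.0625.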
